A study of Mus musculus with 21 samples.

Results

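The nuclear genes for complexes I to V of the respiratory chain and for the mitochondrial ribosome were followed through 7 populations of mouse epidermal cells. They were taken by symbol from the deposited tables, as Nduf genes with a subunit letter and number (complex I), Sdha to Sdhd (complex II), Uqcr genes (complex III), Cox4 to Cox8 genes (complex IV), Atp5 genes (complex V), and Mrpl and Mrps genes with a number (the large and the small subunit of the mitochondrial ribosome). Of 43776 symbols common to all 3 tables, 149 fitted: 34 for complex I, 4 for complex II, 8 for complex III, 17 for complex IV, 16 for complex V and 70 for the mitochondrial ribosome, 47 of them Mrpl and 23 Mrps. A further 7 symbols (Atp5o, Mrpl53, Mrps24, Mrps34, Mrps6, Ndufb2 and Ndufb8) lay in loci merged with another gene and were left out, as were 7 pseudogene symbols. The rule uses names, but the set itself was chosen by earlier results on the FPKM differences of these same tables, so its counts and medians are descriptions and carry no test.

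The respiratory chain sits in the inner mitochondrial membrane. Complex I takes electrons from NADH and complex II, an enzyme of the citric acid cycle, takes them from succinate; complex III passes them to cytochrome c and complex IV to oxygen, and complex V uses the resulting proton gradient to make ATP. All of these except complex II combine subunits encoded in the nucleus with a few core subunits encoded in mitochondrial DNA, and these core subunits are translated by the mitochondrial ribosome, whose proteins are all nuclear. Hair follicle stem cells, which rest in the bulge between bouts of hair growth, have been described as relying on glycolysis more than other epidermal cells.

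Polyadenylated RNA was sequenced from 21 libraries of epidermal keratinocytes, in 7 groups of 3. Of these, 9 wild type libraries were hair follicle stem cells (HFSCs) purified by flow cytometry, cultured HFSCs, and total epidermal cells. Another 6 were the CD34+ and the CD34neg fraction of alpha-6 integrin+ cells from 3C cultures, which grow for 10 to 14 days from total epidermal cells and so are mixtures. The last 6 were 3C cultures kept for 48 h with dorsomorphin, which blocks BMP receptor kinases and also AMPK, a sensor of cellular energy, or with cyclopamine, an inhibitor of the Hedgehog transducer Smoothened. Genotype is given only for the first 9 libraries, as wild type, and age for none. The study asked which cells the 3C fractions are, and which early changes come with depletion of HFSCs by dorsomorphin and their enrichment by cyclopamine. Bulge stem cells of the follicle carry both CD34 and alpha-6 integrin on their surface.

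Each table holds 1 FPKM value (fragments per kilobase of transcript, scaled to the mapped fragments of the library) per locus and population, estimated by the authors over its libraries. Values therefore carry no replicate spread here, the depth of each library is unknown, and every call is that of the authors' deposited table (adjusted p under 0.05). The table of 3 populations names them CD34a6, HFSC and bulk. Bulk was read as total epidermal cells, but whether CD34a6 or HFSC stands for the sorted cells cannot be read from the labels, so the names are kept. The sorted libraries are titled HFSCs and the cultured ones 3C-HFSCs. Bulge genes differed among these populations. Cd34 had 327 FPKM in CD34a6, 8.70 in HFSC and 10.6 in bulk, and Lhx2 270.3 FPKM in CD34a6, 2.06 in HFSC and 7.91 in bulk. Sox9 was higher in HFSC than in bulk, with 180.1 FPKM in CD34a6, 55.2 in HFSC and 20.4 in bulk. Krt15, whose level is most of their sum in CD34a6 and bulk, had 9923 FPKM in CD34a6, 37.9 in HFSC and 4791 in bulk. Differences are on the scale log2(FPKM + 1), which understates changes of low genes, and are positive where the first-named population was higher. The tables were normalised separately, so levels are compared within a table only.

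All 34 symbols of complex I, 4 of complex II, 8 of complex III and 16 of complex V were tested by the authors in every comparison, whereas the tissue isoforms of complex IV were mostly at or near 0. Cox4i2, Cox7b2, Cox8b and Cox8c were tested in no comparison, and the last 3 were listed at 0 throughout. Mrps23, listed at 2 loci, was at 0 at one and under 1 FPKM at the other in the table of 3 populations, but had 12.96 FPKM in CD34+ and 19.4 FPKM in CD34neg cells. A few symbols do not name structural subunits of their group. Atp5s and Atp5sl are assembly or coupling factors, Cox7a2l helps complexes III and IV to associate, and the Mrps36 product belongs to the oxoglutarate dehydrogenase complex. Ndufa4, named for complex I, was later assigned to complex IV. Many of these genes have processed pseudogenes with nearly the same sequence, so levels of single genes such as Atp5l, Cox7c, Uqcrh and Atp5g1 to Atp5g3 are uncertain. The library kit keeps the strand, but whether the counting used it is not given in the sources used here.

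The proximal promoters of these genes were searched for letters of known regulators. NRF1, ETS factors of the GABP type and YY1 are textbook regulators of nuclear genes for mitochondrial proteins. Of the 149 genes, 128 had a promoter in RefSeq (GRCm38.p6), 3 of them by an older symbol. The window searched ran from 250 bases before to 50 bases after each annotated start. At least 1 of the motifs GCATGCGC (NRF1), CCGGAAG (ETS) and AAGATGGCG (YY1), on either strand, was found in 58 of the 128 genes (45.3%), against 13.6% of 27025 genes. The NRF1 letters were found in 13.3% of the set against 3.05% of all genes, the ETS letters in 28.9% against 9.93%, and the YY1 letters in 10.9% against 1.64%. The ETS letters can run into the YY1 letters, which start with the AAG that ends them, and 2 genes of the set held both; 8 held NRF1 and ETS. A match is only a run of letters and says nothing of binding in these cells. All genes with a promoter served as background, and no set of genes with like expression was compared. The share with any motif was 40.0% in complex I, 66.7% in complex II (2 of 3 genes), 60.0% in complex III, 23.1% in complex IV, 53.3% in complex V and 48.4% in the mitochondrial ribosome.

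The 250 bases before the start of 7 genes named in the results below are shown 5′ to 3′ on the gene's own strand, with the motif letters in capitals. Mrpl36 was picked for its YY1 letters, so the 7 do not stand for the set. Ndufa4 and Cox6b2, the genes at opposite ends of the comparison of CD34a6 with bulk, hold none of the motifs. Ndufa11, Sdhd, Uqcrh, Atp5e and Mrpl36 hold letters of NRF1 (Ndufa11, on both strands and overlapping), ETS (Sdhd, Uqcrh and Atp5e) or YY1 (Mrpl36).
Ndufa4 (chr6:11907451-11907700, minus strand, GRCm38.p6): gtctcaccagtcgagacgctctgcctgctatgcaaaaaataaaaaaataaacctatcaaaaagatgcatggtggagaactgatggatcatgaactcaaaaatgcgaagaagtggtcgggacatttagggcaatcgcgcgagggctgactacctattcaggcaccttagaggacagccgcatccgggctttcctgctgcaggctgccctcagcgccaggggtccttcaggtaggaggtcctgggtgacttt
Ndufa11 (chr17:56717512-56717761, plus strand, GRCm38.p6): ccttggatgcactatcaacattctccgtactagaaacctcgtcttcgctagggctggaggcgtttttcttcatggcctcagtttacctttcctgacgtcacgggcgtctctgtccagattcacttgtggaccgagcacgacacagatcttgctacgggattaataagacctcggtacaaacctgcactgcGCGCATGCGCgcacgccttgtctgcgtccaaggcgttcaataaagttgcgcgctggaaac
Sdhd (chr9:50603850-50604099, minus strand, GRCm38.p6): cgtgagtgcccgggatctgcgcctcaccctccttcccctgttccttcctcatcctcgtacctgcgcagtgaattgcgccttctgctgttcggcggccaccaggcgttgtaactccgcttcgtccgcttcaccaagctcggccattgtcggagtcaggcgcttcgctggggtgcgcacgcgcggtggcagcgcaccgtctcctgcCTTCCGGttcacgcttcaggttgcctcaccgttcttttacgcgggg
Uqcrh (chr4:116075071-116075320, minus strand, GRCm38.p6): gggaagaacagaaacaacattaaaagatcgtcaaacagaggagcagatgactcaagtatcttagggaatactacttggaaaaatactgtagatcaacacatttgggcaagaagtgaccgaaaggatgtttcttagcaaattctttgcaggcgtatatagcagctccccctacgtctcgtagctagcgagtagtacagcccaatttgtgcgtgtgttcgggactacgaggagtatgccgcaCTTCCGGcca
Cox6b2 (chr7:4753095-4753344, minus strand, GRCm38.p6): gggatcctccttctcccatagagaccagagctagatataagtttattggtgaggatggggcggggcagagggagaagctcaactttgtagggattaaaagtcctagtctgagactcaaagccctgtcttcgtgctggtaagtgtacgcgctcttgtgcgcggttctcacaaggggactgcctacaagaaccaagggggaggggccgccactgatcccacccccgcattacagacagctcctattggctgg
Atp5e (chr2:174464102-174464351, minus strand, GRCm38.p6): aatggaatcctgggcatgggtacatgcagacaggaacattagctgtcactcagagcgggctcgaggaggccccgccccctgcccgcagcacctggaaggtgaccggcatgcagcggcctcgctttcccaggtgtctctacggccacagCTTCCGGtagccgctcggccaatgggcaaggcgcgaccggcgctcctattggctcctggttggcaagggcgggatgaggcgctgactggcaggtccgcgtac
Mrpl36 (chr13:73330759-73331008, plus strand, GRCm38.p6): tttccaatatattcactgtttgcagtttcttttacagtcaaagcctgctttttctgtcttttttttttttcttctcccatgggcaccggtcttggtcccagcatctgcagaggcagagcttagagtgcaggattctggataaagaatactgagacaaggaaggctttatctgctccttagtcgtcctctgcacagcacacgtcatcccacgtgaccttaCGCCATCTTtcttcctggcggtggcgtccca

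Levels were highest in complexes III to V and lowest in the mitochondrial ribosome. In bulk, tested genes of complex III had a median of 383 FPKM, those of complex IV 326, of complex V 314, of complex I 159.8, of complex II 92.9 and of the mitochondrial ribosome 44.7. The highest genes were Atp5b, the catalytic beta subunit of complex V, at 1191 FPKM, and Uqcrh, the hinge protein of complex III, at 1025 FPKM. Mrpl33 was the highest gene of the mitochondrial ribosome in the same population, at 205 FPKM. Among the lowest tested genes were Atp5l, subunit g of complex V, with 0.407 FPKM in CD34a6, 0.766 in HFSC and 1.13 in bulk, and Mrpl23, with 1.53 FPKM in CD34a6, 0.663 in HFSC and 0.598 in bulk. In complex I, Ndufa11 and Ndufb4, both accessory subunits, were lowest, the second with 15.9 FPKM in CD34a6, 21.6 in HFSC and 61.9 in bulk. The highest ribosomal gene of the 3C tables was Mrpl30, with 114 FPKM in CD34+ and 185 FPKM in CD34neg cells, and the lowest was Mrpl11, with 3.98 FPKM in CD34+ and 7.71 FPKM in CD34neg cells. All genes of the set together took 2.03% of the summed FPKM of CD34a6, 2.27% in HFSC and 2.68% in bulk. The share was 2.41% in CD34+ and 3.04% in CD34neg cells, and 2.196% with dorsomorphin and 1.98% with cyclopamine. In the tables of culture fractions and inhibitors Atp5b alone had 5424 FPKM in CD34+, 8328 in CD34neg, 5276 with dorsomorphin and 4778 with cyclopamine. Its locus also holds Mir677 and the small nucleolar RNA gene Snord59a. Without Atp5b, an alternative chosen after seeing the data, the share of the set was 1.35% in CD34+ and 1.81% in CD34neg cells, and 1.13% with dorsomorphin and 1.09% with cyclopamine.

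**Figure D1:**
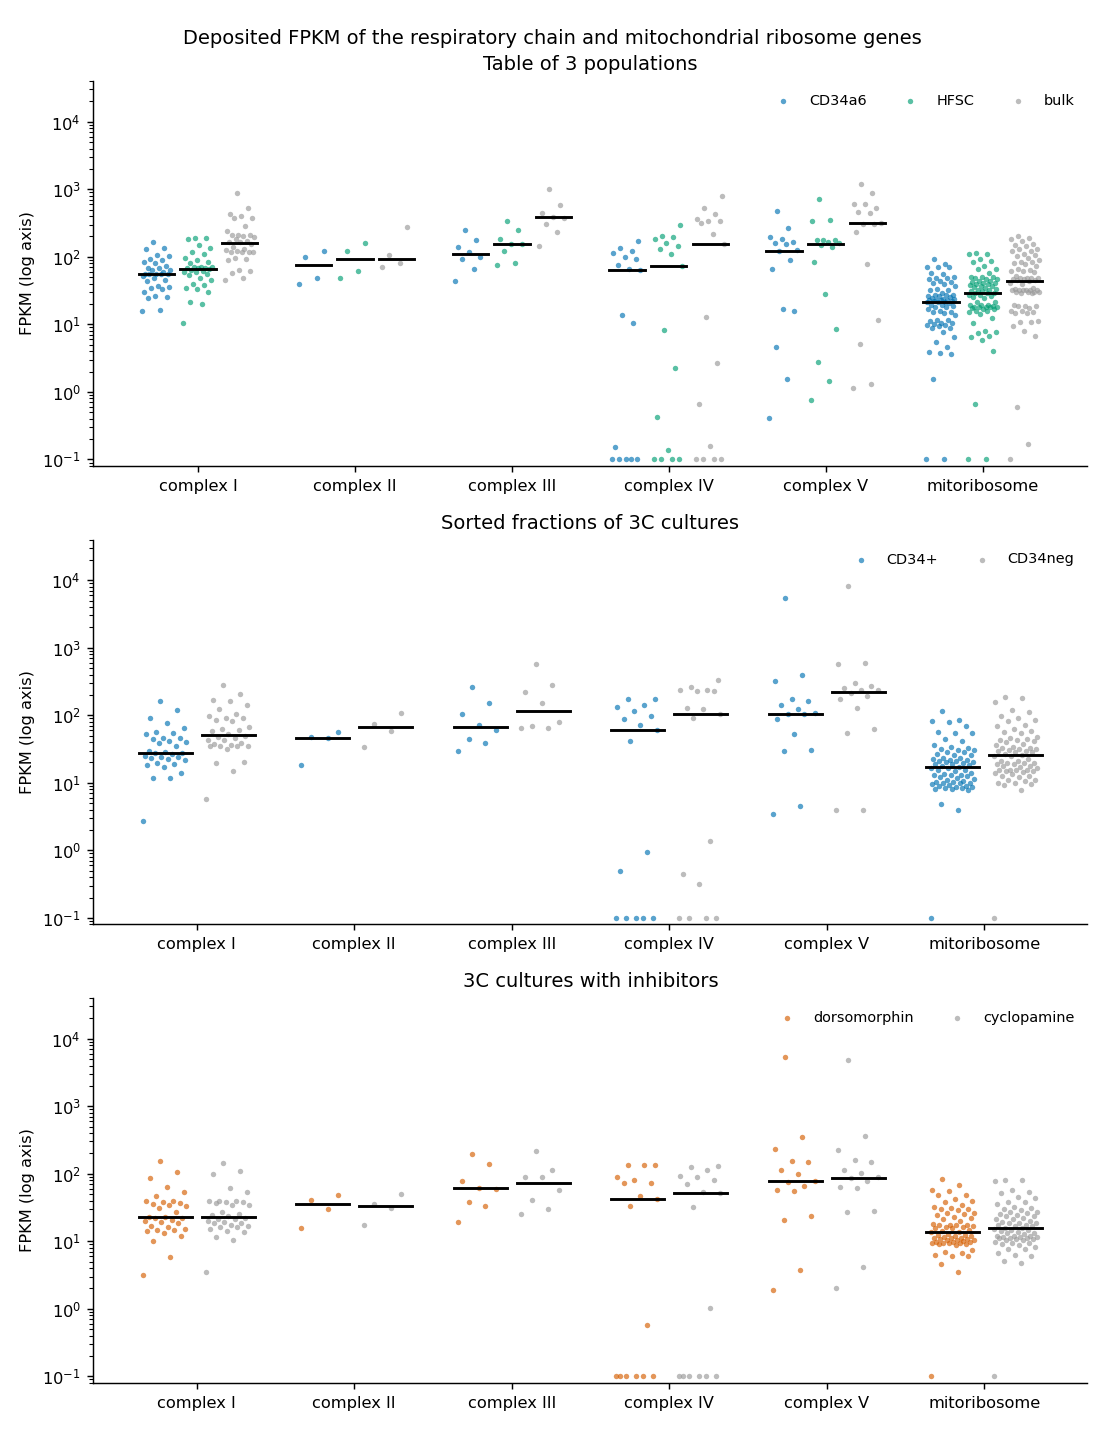
FPKM (log axis) of each gene of the set by complex, for the populations of each deposited table, with black bars at the median; values under 0.1 FPKM, zeros included, are drawn at 0.1. Complex III has the highest median in bulk (383 FPKM over tested genes), Atp5b stands at 8328 FPKM in CD34neg cells, and the points at the floor are mostly tissue isoforms of complex IV.

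The respiratory chain was lower in CD34a6 than in total epidermal cells. Of 143 tested genes of the set, 100 were lower (69.9%) and 1 was higher in the authors' deposited table, where 24.3% of all 14441 tested loci were lower and 22.0% higher. The median log2 difference of the set was -1.28, against 0.0029 over all tested loci. Complex III had all 8 genes lower (median -1.91), complex I 30 of 34 (-1.59), complex IV 9 of 12 (-1.81), complex V 11 of 16 (-1.32), complex II 2 of 4 (-0.75) and the mitochondrial ribosome 40 of 69 (-1.05). Summed FPKM over all loci was 406723 in CD34a6 and 917078 in bulk, where the largest single locus, Eef1a1, had 50787 FPKM. Rescaling each population to the same sum (TPM) moved the median of all loci to 1.00 and that of the set to -0.15, and the called genes then split by sign into 21 higher and 80 lower. On that scale complexes I, III, IV and V stayed below 0, while complex II (0.41) and the mitochondrial ribosome (0.085) turned above 0, all of them still under the median of all loci.

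Ndufa4 (chr6:11900373-11907446) had 102 FPKM in CD34a6 and 884 FPKM in bulk, a log2 difference of -3.11 and the largest fall of the set (adjusted p = 0.000212 in the authors' deposited table). Ndufc1 (chr3:51404677-51408988), a small accessory subunit of the membrane arm of complex I, had 80.9 FPKM in CD34a6 and 373 FPKM in bulk (log2 difference -2.19, adjusted p = 0.000212 in the authors' deposited table). Among the 27 genes counted as accessory subunits, Ndufa4 included by its symbol, 25 were lower, with a median of -1.74. Of the 7 core subunits, which carry the redox centres, 5 were lower, with a median of -1.21; Ndufs1 had 37.3 FPKM in CD34a6 and 48.0 FPKM in bulk and was not called. In complex II the called genes were Sdhc and Sdhd, the membrane anchors. Sdhc had 120.3 FPKM in CD34a6 and 274 FPKM in bulk, and Sdhd had 40.0 FPKM in CD34a6 and 70.5 FPKM in bulk (log2 differences -1.18 and -0.80; on the TPM scale -0.013 and 0.35, so that of Sdhd turned). The flavoprotein Sdha had 101 FPKM in CD34a6 and 106 FPKM in bulk, and the iron-sulphur subunit Sdhb 49.1 FPKM in CD34a6 and 79.8 FPKM in bulk, neither of them called. Sdhb lay just above the threshold (adjusted p = 0.0533 in the authors' deposited table, against 0.0226 for Sdhc and 0.0258 for Sdhd). At an adjusted p under 0.01, 0 genes of complex II were lower.

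In complex III, Uqcrq, the small subunit that binds ubiquinone with cytochrome b, had 119 FPKM in CD34a6 and 587 FPKM in bulk (log2 difference -2.29, adjusted p = 0.000212 in the authors' deposited table). The Rieske iron-sulphur protein Uqcrfs1 had 44.1 FPKM in CD34a6 and 144 FPKM in bulk. All 5 F1 subunits of complex V were lower, with a median of -1.83. The beta subunit gene Atp5b (chr10:128083273-128090391) had 477 FPKM in CD34a6 and 1191 FPKM in bulk, and Atp5e, the epsilon subunit, 195 FPKM in CD34a6 and 869 FPKM in bulk. The largest fall in complex V was in Atp5k, subunit e of the membrane part, with 65.0 FPKM in CD34a6 and 302 FPKM in bulk (log2 difference -2.20). On the TPM scale these differences were -0.15 for Atp5b, -0.98 for Atp5e and -1.04 for Atp5k. In the mitochondrial ribosome the largest fall was in Mrps28, with 10.1 FPKM in CD34a6 and 40.4 FPKM in bulk (log2 difference -1.89). Mrpl33 had 71.6 FPKM in CD34a6 and 205 FPKM in bulk and was also lower.

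Markers of other cells moved with this comparison. Summed FPKM of the 4 suprabasal genes Krt1, Krt10, Lor and Ivl was 1110.4 in CD34a6 and 34041 in bulk. The 4 immune genes Ptprc, Cd74, Cd3e and H2-Aa summed to 5.08 FPKM in CD34a6 and 305 in bulk, and the 3 erythroid genes Hba-a1, Hbb-bs and Alas2 to 4.14 in CD34a6 and 162 in bulk. Skeletal muscle genes summed to 5.60 FPKM in CD34a6 and 38.1 in bulk, nearly all of it Mylpf, with Myl1 at 0 in both and Ckm at 0.0626 in CD34a6 and 0.151 in bulk. Fibroblast markers (Col1a1, Col3a1 and Pdgfra) summed to 22.4 FPKM in CD34a6 and 1.52 in bulk, nearly all of it Col1a1 in CD34a6, which was called higher (log2 difference 3.41). The part of these markers in the differences of the set was not tested. In bulk populations, fewer cells of a type and less RNA per cell cannot be told apart.

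**Figure D2:**
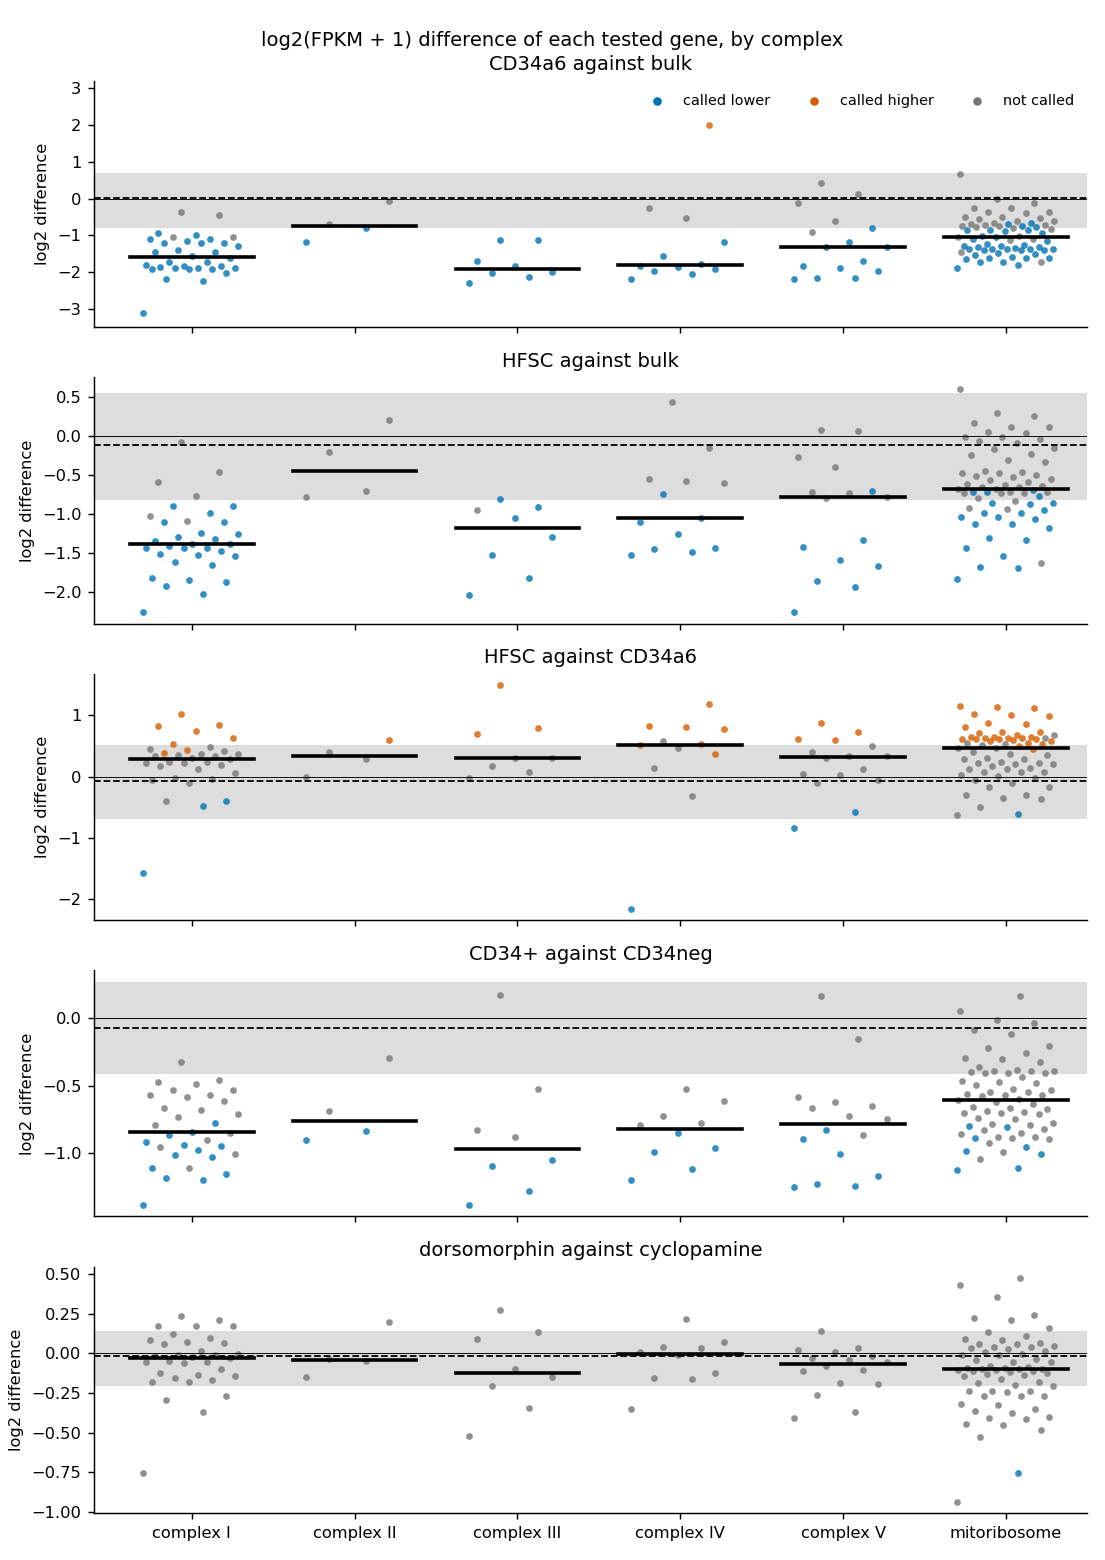
Difference in log2(FPKM + 1) of each tested gene, by complex, in the 5 comparisons (vertical scales differ); colours give the authors' calls, black bars the median of each complex, the dashed line and grey band the median and middle 50% of all tested loci. Every complex has its median below that of all loci in CD34a6 against bulk (-1.91 in complex III) and in CD34+ against CD34neg (-0.97), and above it in HFSC against CD34a6.

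In HFSC against bulk, which uses the same bulk values, 74 of 144 tested genes were lower (51.4%) and none was higher in the authors' deposited table, where 24.7% of all 14035 tested loci were lower and 19.0% higher. The median log2 difference of the set was -0.86, against -0.11 over all tested loci. Complex I had 28 of 34 genes lower (median -1.38), complex III 7 of 8 (-1.18), complex IV 8 of 13 (-1.05), complex V 8 of 16 (-0.78), the mitochondrial ribosome 23 of 69 (-0.67) and complex II 0 of 4 (-0.45). On the TPM scale the median of all loci was 0.66 and that of the set 0.037, and the called genes split into 13 higher and 61 lower. Complexes I, III and IV stayed below 0 there (-0.46, -0.25 and -0.18), while complexes II and V and the ribosome turned above it. Summed suprabasal markers were 139.9 FPKM in HFSC and 34041 in bulk and immune markers 1.27 in HFSC and 305 in bulk, and their part in these differences was not tested.

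The largest falls in HFSC were those of Ndufa4, with 184 FPKM in HFSC and 884 FPKM in bulk (log2 difference -2.26), and of Atp5e, with 180.1 FPKM in HFSC and 869 FPKM in bulk (-2.26). Uqcrh had 249 FPKM in HFSC and 1025 FPKM in bulk (log2 difference -2.04, adjusted p = 0.000212 in the authors' deposited table). Ndufa11 (chr17:56717762-56724248), an accessory subunit of the membrane arm, had 10.5 FPKM in HFSC and 45.6 FPKM in bulk, a log2 difference of -2.02. Cox7a2 had the largest fall in complex IV, with 109 FPKM in HFSC and 316 FPKM in bulk (-1.53). Sdha had 123 FPKM in HFSC and 106 FPKM in bulk, and Atp5g3, which encodes the c-ring of complex V, 336 FPKM in HFSC and 319 FPKM in bulk, neither of them called. Among ribosomal genes the largest fall was in Mrpl14, with 40.6 FPKM in HFSC and 148 FPKM in bulk (-1.84, adjusted p = 0.0444 in the authors' deposited table). The called falls of Cox8a, Mrpl33 and Uqcrfs1 (log2 differences -0.74, -0.86 and -0.90) were above 0 on the TPM scale (0.19, 0.059 and 0.015).

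Between HFSC and CD34a6 more of the set was higher in HFSC than lower. This comparison uses the same HFSC and CD34a6 values as those with bulk. Of 143 tested genes 53 were higher and 7 lower in the authors' deposited table, where 25.2% of all 13962 tested loci were higher and 29.0% lower; 37.1% of the set was higher and 4.90% lower. The median log2 difference was 0.36 for the set and -0.075 for all loci, and on the TPM scale 0.13 for the set and -0.31 for all loci, with the same split of 53 and 7. The mitochondrial ribosome had 30 of 69 genes higher (43.5%, median 0.47) and complex IV 7 of 12 (58.3%, 0.52). Complex I had 8 of 34 higher and 3 lower (0.29), complex III 3 of 8 higher (0.30), complex V 4 higher and 2 lower of 16 (0.32) and complex II 1 of 4 higher (0.34). Among the 7 core subunits of complex I none was called, with a median of 0.18 (-0.061 on the TPM scale). Summed suprabasal markers were 139.9 FPKM in HFSC and 1110.4 in CD34a6, where 1 gene had 874 FPKM. Of these 4 genes 3 were lower in HFSC and 1 was higher (log2 difference 2.09). Fibroblast markers summed to 0.539 FPKM in HFSC and 22.4 in CD34a6. The part of these markers in the differences of the set was not tested.

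Uqcrq had the largest gain, with 336 FPKM in HFSC and 119 FPKM in CD34a6 (log2 difference 1.49, adjusted p = 0.000212 in the authors' deposited table). Cox5a, a nuclear subunit of complex IV, had 145 FPKM in HFSC and 63.4 FPKM in CD34a6 (1.18); its locus overlaps Fam219b on the same strand. Mrpl17 had 110.0 FPKM in HFSC and 49.1 FPKM in CD34a6 (1.15), from a locus that also spans Dchs1. Mrpl36 (chr13:73331009-73332175), a short protein of the large subunit whose promoter is shown above for its YY1 letters, had 46.8 FPKM in HFSC and 22.5 FPKM in CD34a6 (1.02). In complex I the largest gain was in Ndufa12, with 34.1 FPKM in HFSC and 16.3 FPKM in CD34a6 (1.02), and Ndufc1 had 137 FPKM in HFSC and 80.9 FPKM in CD34a6 (0.75). Sdhd was the called gene of complex II, with 61.3 FPKM in HFSC and 40.0 FPKM in CD34a6 (0.60). The c-ring gene Atp5g3 had 336 FPKM in HFSC and 182 FPKM in CD34a6 (0.88).

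The 7 genes that went the other way were Ndufa11, Ndufb10, Ndufs4, Cox6b2, Atp5s, Atp5sl and Mrpl23. Ndufa11 had 10.5 FPKM in HFSC and 33.0 FPKM in CD34a6 (log2 difference -1.57, adjusted p = 0.000212 in the authors' deposited table), while 8 other genes of its complex were higher. The others of complex I had smaller falls, with Ndufb10 at 67.4 FPKM in HFSC and 94.1 FPKM in CD34a6 (-0.47) and Ndufs4 at 19.7 FPKM in HFSC and 26.3 FPKM in CD34a6 (-0.40). Atp5s and Atp5sl, the factors that are no structural subunits, had 2.77 and 8.55 FPKM in HFSC and 4.65 and 16.0 FPKM in CD34a6. Mrpl23 had 0.663 FPKM in HFSC and 1.53 FPKM in CD34a6, both low. At an adjusted p under 0.01, 4 of the 7 were still lower (Ndufa11, Cox6b2, Atp5s and Atp5sl). Leaving out genes that are no structural subunit and tissue isoforms also left 4, but different ones (Ndufa11, Ndufb10, Ndufs4 and Mrpl23). Only Ndufa11 stood in both.

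**Figure D3:**
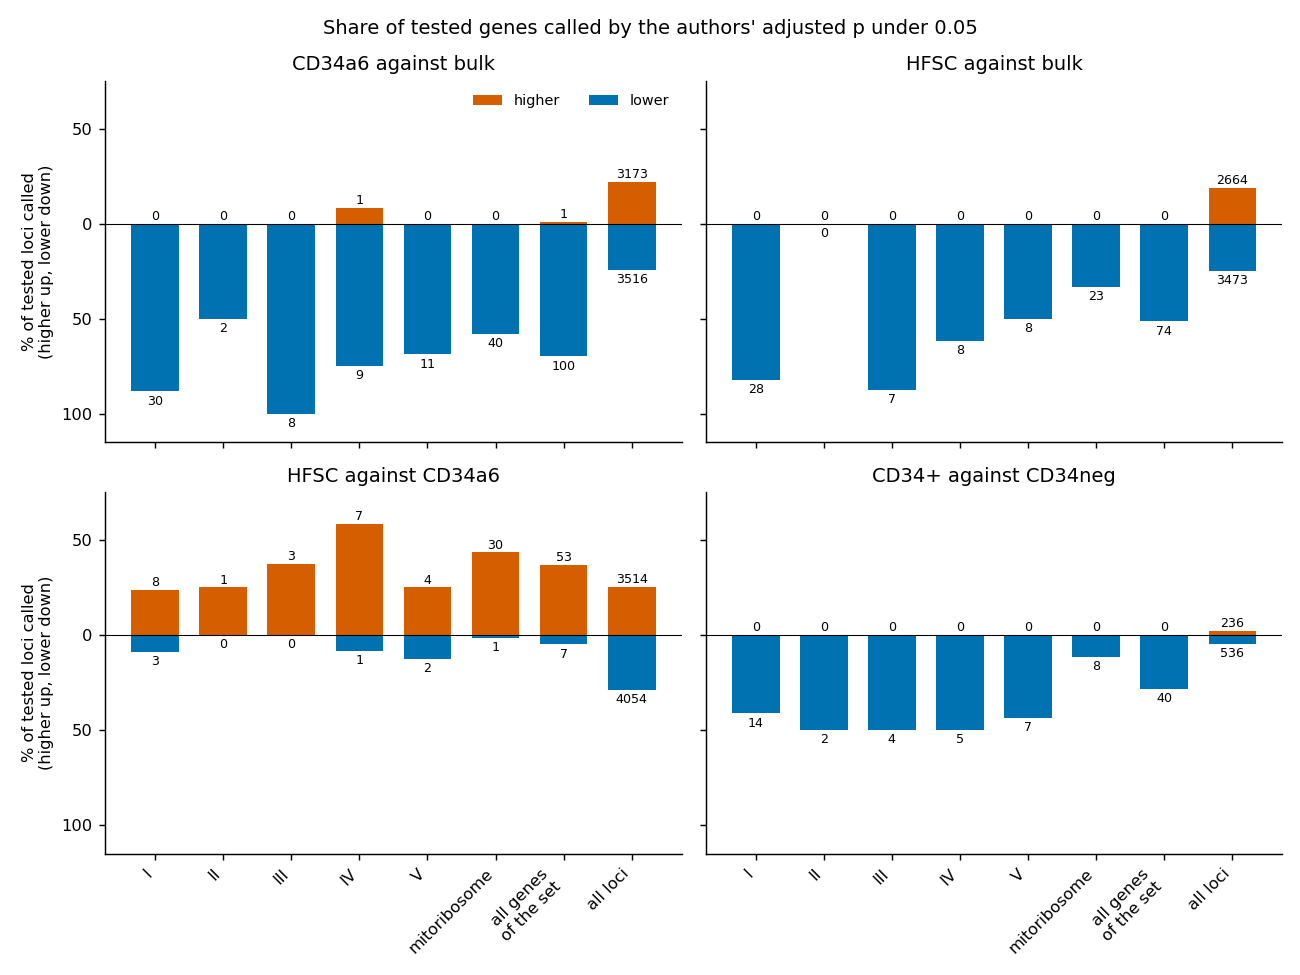
Percent of tested genes called higher (upward, orange) and lower (downward, blue) by complex, for all 149 genes together and for all tested loci, with the number of genes above or below each bar; the comparison of inhibitors, with 1 call, is not drawn. The set stands at 100 lower and 1 higher in CD34a6 against bulk and at 53 higher and 7 lower in HFSC against CD34a6.

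Complex IV has pairs of common and tissue-restricted isoforms, and 1 tissue-restricted isoform was the only gene of the set higher in CD34a6 than in bulk. Cox6b2 (chr7:4751792-4753094), known as the testis isoform of subunit VIb, had 13.6 FPKM in CD34a6, 2.28 in HFSC and 2.65 in bulk. It was higher in CD34a6 than in bulk (log2 difference 2.00, adjusted p = 0.000404) and lower in HFSC than in CD34a6 (-2.16, adjusted p = 0.000212) in the authors' deposited table. Its common counterpart Cox6b1 went against it, with 174 FPKM in CD34a6, 298 in HFSC and 805 in bulk, and was lower in CD34a6 than in bulk (log2 difference -2.20). Even in CD34a6 the level of Cox6b2 was below that of Cox6b1. In the culture fractions Cox6b2 had 0.960 FPKM in CD34+ and 1.37 in CD34neg cells and was not tested. Cox4i1, the common counterpart of Cox4i2, was not among the symbols found. The 5 common isoforms found were Cox6a1, Cox6b1, Cox7a2, Cox7b and Cox8a. All 5 were lower in CD34a6 than in bulk (median -1.97) and lower in HFSC than in bulk (-1.43, with Cox8a turned on the TPM scale). All 5 were higher in HFSC than in CD34a6 (0.77). The muscle isoforms Cox6a2 and Cox7a1 were under 1 FPKM in every population.

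In the 3C cultures the set was lower in the CD34+ than in the CD34neg fraction. Of 142 tested genes 40 were lower (28.2%) and none higher in the authors' deposited table, where 4.71% of all 11370 tested loci were lower and 2.08% higher; 138 of the 142 had a difference below 0. The median log2 difference was -0.72 for the set and -0.071 for all loci, and on the TPM scale -0.32 for the set and 0.31 for all loci, with the same count of 40. Complexes I to V held 32 of the 40. Complex I had 14 of 34 lower (median -0.85), complex III 4 of 8 (-0.97), complex IV 5 of 10 (-0.82), complex V 7 of 16 (-0.79) and complex II 2 of 4 (-0.76), against 8 of 70 in the mitochondrial ribosome (-0.60). At an adjusted p under 0.01 the count was 15. Markers of other cells were low in both fractions, with summed suprabasal genes at 2.98 FPKM in CD34+ and 6.55 in CD34neg cells and immune genes at 1.71 in CD34+ and 0.748 in CD34neg cells, and their part in the differences was not tested. Bulge genes, which include the sorted marker Cd34, summed to 175 FPKM in CD34+ and 48.4 in CD34neg cells.

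Ndufc1 had the largest called fall of the whole set here, with 53.4 FPKM in CD34+ and 141 FPKM in CD34neg cells (log2 difference -1.39, adjusted p = 0.00488 in the authors' deposited table). Uqcr11, a small subunit of complex III, followed with 29.7 FPKM in CD34+ and 79.0 FPKM in CD34neg cells (-1.38), and Uqcrq had 61.2 FPKM in CD34+ and 150.1 FPKM in CD34neg cells (-1.28). The core protein gene Uqcrc1 was 1 of 4 tested genes with a difference above 0, with 72.6 FPKM in CD34+ and 64.3 FPKM in CD34neg cells, and was not called. In complex IV the largest fall was in Cox6b1, with 97.9 FPKM in CD34+ and 227 FPKM in CD34neg cells (-1.20). Cox7c had 116 FPKM in CD34+ and 233 FPKM in CD34neg cells (-0.99).

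In complex V all 3 c-ring genes and 1 of the 5 F1 genes were called. Their differences overlapped, from -0.83 to -1.23 in the c-ring and from -0.59 to -1.25 in the F1 genes. At an adjusted p under 0.01, 4 genes of complex V were lower, where 7 had been. All 3 c-ring genes were lower: Atp5g1 with 160.0 FPKM in CD34+ and 298 FPKM in CD34neg cells, Atp5g2 with 53.3 FPKM in CD34+ and 126 FPKM in CD34neg cells, and Atp5g3 with 321 FPKM in CD34+ and 571 FPKM in CD34neg cells. These genes encode the same mature protein with different import sequences. Of the 5 F1 genes only Atp5e was called, with 87.8 FPKM in CD34+ and 211 FPKM in CD34neg cells (log2 difference -1.25), and the median over the F1 genes was -0.65. Atp5h, subunit d of the peripheral stalk, had 107 FPKM in CD34+ and 254 FPKM in CD34neg cells. In complex II, Sdhd had 57.2 FPKM in CD34+ and 108 FPKM in CD34neg cells (-0.90) and Sdhb 18.7 FPKM in CD34+ and 34.0 FPKM in CD34neg cells (-0.83), and both were lower. The 8 ribosomal genes called were Mrpl11, Mrpl17, Mrpl20, Mrpl23, Mrpl32, Mrpl57, Mrps21 and Mrps28. Mrpl17 had the largest fall among them, with 83.0 FPKM in CD34+ and 183 FPKM in CD34neg cells (-1.13).

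Between dorsomorphin and cyclopamine few loci were called, in the set as over all loci. Of 142 tested genes of the set 1 was lower (0.70%) and none higher in the authors' deposited table. Of all 11505 tested loci 1.31% were lower and 1.26% higher. The median log2 difference was -0.083 for the set and -0.020 for all loci; on the TPM scale that of the set was 0.023 and that of all loci 0.087. Mrpl41 (chr2:24974117-24975098), a protein of the large ribosomal subunit, was the called gene, with 12.1 FPKM under dorsomorphin and 21.1 FPKM under cyclopamine (log2 difference -0.76, adjusted p = 0.0428 in the authors' deposited table). It was not called at an adjusted p under 0.01. Mrps33 had a larger difference, with 9.35 FPKM under dorsomorphin and 18.8 FPKM under cyclopamine (-0.94), but was not called (adjusted p = 0.0688 in the authors' deposited table). The 5 complexes had medians between -0.12 (complex III) and -0.0013 (complex IV). Ndufc1 had 47.1 FPKM under dorsomorphin and 39.8 FPKM under cyclopamine, and its difference of 0.24 was not called. A missed threshold does not show that the cultures were alike.

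The mitochondrial genome encodes the core of complexes I, III, IV and V, and 8 of the 13 genes listed for it were found as single symbols in the tables (mt-Nd1, mt-Nd2, mt-Nd3, mt-Nd5, mt-Nd6, mt-Cytb, mt-Co1 and mt-Co2). In CD34a6 against bulk 6 of 8 were lower and none higher, with a median log2 difference of -0.98 (0.14 on the TPM scale). In HFSC against bulk 6 of 8 were lower (-1.74, on the TPM scale -0.87). Between HFSC and CD34a6 their median had the opposite sign to that of the nuclear genes, with 4 of 8 lower and none higher (-0.52), where the nuclear complexes had 23 higher and 6 lower of 74 (0.33); the difference between the genomes was not tested. Mt-Cytb is the only mitochondrially encoded subunit of complex III. It had 1602 FPKM in HFSC and 3806 FPKM in CD34a6 (log2 difference -1.25, adjusted p = 0.000212 in the authors' deposited table). Of the 8 nuclear genes of complex III, 3 were higher in HFSC and 5 were not called. Their median was 0.30 (0.059 on the TPM scale), and Uqcrq had the largest gain. Mt-Co1, the catalytic subunit of complex IV, had 2541 FPKM in HFSC and 3503 FPKM in CD34a6 and was not called.

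In the culture fractions, too, the medians of the genomes differed in sign, which was not tested. Mitochondrially encoded genes had a median log2 difference of 0.23 in CD34+ against CD34neg cells, where the nuclear complexes had -0.84 (0.64 and -0.45 on the TPM scale). The called gene was mt-Co2, a core subunit of complex IV, with 1184 FPKM in CD34+ and 531 FPKM in CD34neg cells (log2 difference 1.15, adjusted p = 0.00656 in the authors' deposited table). Mt-Nd1 had 3463 FPKM in CD34+ and 3227 FPKM in CD34neg cells and was not called. The ratio of summed mitochondrially encoded to summed nuclear FPKM of complexes I to V was 1.74 in CD34a6, 0.771 in HFSC and 1.20 in bulk. It was 2.59 in CD34+ and 1.31 in CD34neg cells, and 1.46 with dorsomorphin and 1.58 with cyclopamine. Without Atp5b it was 5.29 in CD34+ and 2.44 in CD34neg cells, and 3.29 with dorsomorphin and 3.32 with cyclopamine. The mitochondrially encoded sums cover only the 8 genes found, and few of these carry much of them. Single genes ranged from 0.764 to 3806 FPKM in CD34a6, from 0.307 to 2541 in HFSC and from 4.21 to 9290 in bulk. Mt-Co1 alone had 3503 of 11174 FPKM in CD34a6, 2541 of 6573 in HFSC and 9290 of 24460 in bulk. The differences between fractions and between populations rest on 1 value each and were not tested as ratios.

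**Figure D4:**
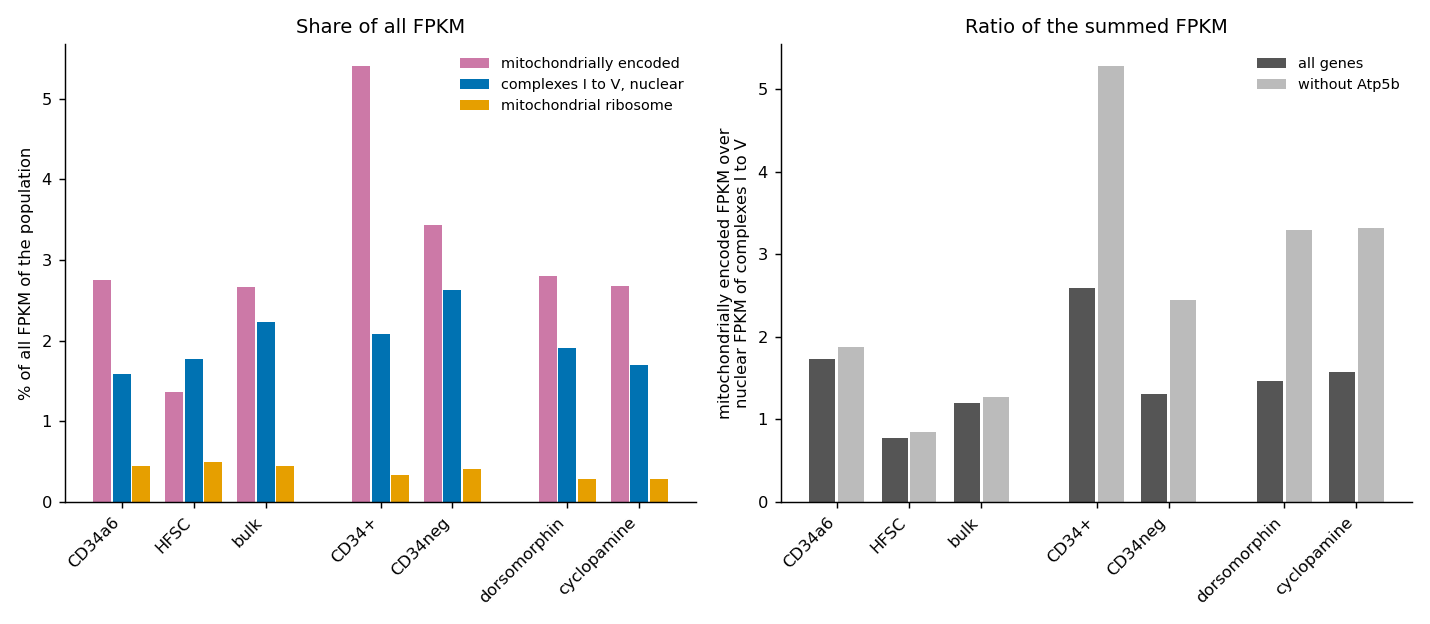
Left, percent of all FPKM of each population taken by mitochondrially encoded genes, by nuclear genes of complexes I to V and by the mitochondrial ribosome; right, the ratio of mitochondrially encoded to nuclear FPKM of complexes I to V with and without Atp5b. The 3 tables are set apart because they were normalised separately; the ratio is 2.59 in CD34+ and 1.31 in CD34neg cells, and 0.771 in HFSC, the lowest of its table.

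Other genes of mitochondrial respiration and translation were counted in lists, to be read against the shares of all loci given above: 24.3% lower in CD34a6 against bulk, 19.0% higher and 24.7% lower in HFSC against bulk, 25.2% higher and 29.0% lower in HFSC against CD34a6, and 4.71% lower in CD34+ against CD34neg cells. Of 10 subunits that the symbol rule misses, 4 were lower in CD34a6 than in bulk (40.0%, median -1.02): Aurkaip1, Cyc1 (cytochrome c1 of complex III), Mrps18a (above 0 on the TPM scale) and Mrps18c. In HFSC against bulk Aurkaip1, Cyc1 (above 0 on the TPM scale) and Mrps18c were lower (30.0%), and in HFSC against CD34a6 Cyc1, Mrps18a, Mrps18b and Ptcd3 were higher (40.0%), Mrps18b with 60.0 FPKM in HFSC and 14.6 FPKM in CD34a6. In the culture fractions Cyc1 was the 1 called of 10, with 101 FPKM in CD34+ and 199 FPKM in CD34neg cells. Of 39 assembly factors, which build the complexes but do not stay in them, 12 were lower and none higher in CD34a6 than in bulk (30.8% lower, median -0.54), against 24.3% of all loci. In HFSC against CD34a6 6 were higher (15.4%) and 2 lower (5.13%), both shares below those of all loci, and in CD34+ against CD34neg cells 1 of 38 was lower (2.63%, median -0.34), also below. That gene was Uqcc2, a factor for complex III, with 25.5 FPKM in CD34+ and 54.5 FPKM in CD34neg cells. Mitochondrial gene expression factors had 1 of 21 called in CD34a6 against bulk (4.76%), the elongation factor gene Tufm with 7.38 FPKM in CD34a6 and 15.8 FPKM in bulk (lower, but above 0 on the TPM scale), and a median of -0.0044. In HFSC against bulk Lrpprc, which stabilises mitochondrial mRNA, was higher, with 24.6 FPKM in HFSC and 14.6 FPKM in bulk, and Polg2, the accessory subunit of the mitochondrial DNA polymerase, was lower. Citric acid cycle genes had 6 of 17 lower in CD34a6 than in bulk (35.3%, median -0.55), and 8 higher (47.1%) and 2 lower (11.8%) in HFSC than in CD34a6 (0.39). Carriers and porins had 6 of 10 lower in CD34a6 than in bulk (60.0%, median -0.89) and 5 of 10 higher in HFSC than in CD34a6 (median 0.40). In the culture fractions Suclg1, of the citric acid cycle, and Etfb, an electron carrier from fatty acid oxidation, were the genes called in these lists, both lower. On the TPM scale the medians of all these lists in CD34a6 against bulk were above 0, from 0.12 to 1.07.

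Among 10 regulators of mitochondrial biogenesis, 1 was higher and 1 lower in CD34a6 against bulk (10.0% each). Over all loci 22.0% were higher and 24.3% lower there. In HFSC against bulk 2 were higher (20.0%) and 1 lower (10.0%), against 19.0% and 24.7% of all loci. In HFSC against CD34a6 3 were higher (30.0%) and 1 lower (10.0%), against 25.2% and 29.0% of all loci. These shares lay near or below those of all loci. The YY1 gene Yy1 was higher in all 3 comparisons, with 36.6 FPKM in CD34a6, 58.4 in HFSC and 20.9 in bulk (log2 difference 0.78 in CD34a6 and 1.44 in HFSC against bulk, and 0.66 in HFSC against CD34a6). Ppard, the nuclear receptor PPAR delta, was higher in HFSC than in bulk (1.52) and than in CD34a6 (1.74), with 16.7 FPKM in CD34a6, 58.1 in HFSC and 19.7 in bulk. Ppargc1b, the coactivator PGC-1 beta, was higher in HFSC than in CD34a6 (0.54), with 1.02 FPKM in CD34a6, 1.93 in HFSC and 1.06 in bulk. Ppara, a receptor that drives fatty acid oxidation, was lower in all 3 comparisons, with 1.34 FPKM in CD34a6, 0.346 in HFSC and 4.63 in bulk. Nrf1 had 16.2 FPKM in CD34a6, 17.6 in HFSC and 12.7 in bulk, and Gabpa 30.7 FPKM in CD34a6, 30.3 in HFSC and 15.4 in bulk, and neither was called against bulk. In the culture fractions 0 of the 9 regulators tested were called, where 2.08% of all loci were higher and 4.71% lower. Genes of the set with a motif and those without had medians of -1.23 (57 genes) and -1.29 (68 genes) in CD34a6 against bulk and -0.76 (58 genes) and -0.67 (66 genes) in CD34+ against CD34neg cells.

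The genes of the set are short. Their median annotated exonic length (GENCODE vM21, all exons of a gene joined) was 1922 nucleotides, against 3988 over all tested loci with a length. Over all loci the rank correlation of length with the log2 difference was 0.31 in CD34a6 against bulk (13492 loci), 0.28 in HFSC against bulk (13131 loci), -0.07 in HFSC against CD34a6 (13045 loci) and 0.36 in CD34+ against CD34neg cells (10581 loci). These are descriptions across genes, which share libraries and are no replicates. Centred on all loci of the same length class (10 classes of equal size), the median of the set was -1.03 in CD34a6 against bulk, -0.51 in HFSC against bulk, 0.36 in HFSC against CD34a6 and -0.47 in CD34+ against CD34neg cells. By this measure the mitochondrial ribosome was at -0.91 in CD34a6 against bulk and complex I at -1.15, and Ndufc1 at -1.60. The part of length in single calls was not tested. Within the set, higher genes had the larger falls, with a rank correlation of summed level and difference of -0.65 over 142 genes in CD34a6 against bulk and -0.50 over 141 in CD34+ against CD34neg cells, again a description in which level and difference share the same FPKM values.

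**Figure D5:**
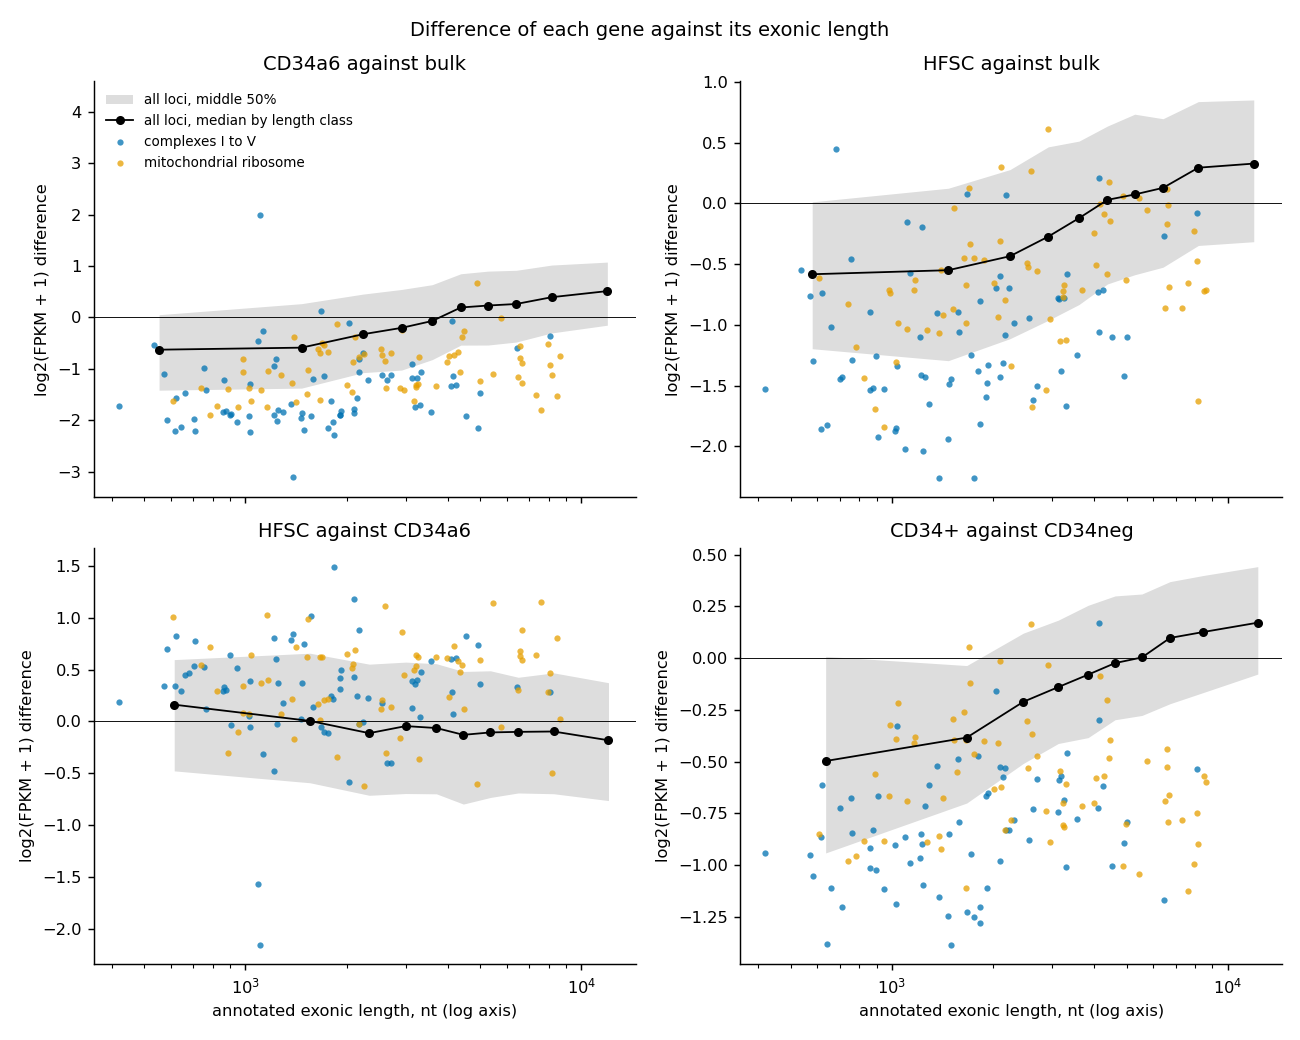
Difference in log2(FPKM + 1) of each tested gene of the set against annotated exonic length (log axis), with the median and middle 50% of all tested loci in 10 length classes (vertical scales differ). Most genes of the set lie below the line of all loci of like length in CD34a6 against bulk (median -1.03 from it) and in CD34+ against CD34neg cells (-0.47), and above it in HFSC against CD34a6 (0.36).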

How the data were processed

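The 149 genes and all other lists were chosen with earlier results of these data known. Per the submitters' processing notes, 9 libraries were processed with FastQC 0.11.3, HISAT 0.1.6, StringTie 1.1.0 and Cufflinks 2.2.1 with Cuffdiff, and 12 with TopHat2 2.0.13, DESeq2 1.8.1, cutadapt 1.5, FastQC 0.11.2 and featureCounts (Subread 1.4.2), on GRCm38; which tool made which table is not given in the sources used here. Per the file headers all 3 tables have the layout of a Cuffdiff gene table. The authors deposited 1 FPKM value per locus and population, their own log2 fold change, and a p-value with a q-value adjusted by Benjamini-Hochberg (the deposited q-values equal such an adjustment within 5.29e-07, and the smallest deposited p-value is 5e-05, so equal q-values stand at that limit). Library depth is unknown, and no value per replicate was analysed here. The planned tests on replicates (edgeR or limma) therefore gave way to the authors' calls at an adjusted p under 0.05. Since nothing says that libraries came from separate animals, those p-values may cover technical spread only.

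Fold changes were computed here as the difference in log2(FPKM + 1), with Python 3.11.15, numpy 2.4.6 and pandas 2.3.3, and rank correlations with scipy 1.17.1; the calculation was tested on simulated data. Alternatives were pseudocounts of 0.1 and 0.01, minimum levels of 1 and 5 FPKM, TPM rescaling, centring on all loci or by 10 classes of GENCODE vM21 exonic length, an adjusted p under 0.01, adjustment within 1 comparison, and genes without overlapping loci or without tissue isoforms and non-structural genes. Summed FPKM differed between populations, which decides where TPM turns a sign. The rule for named genes took Ndufc1, complex II, the extreme called gene of each direction and the highest and lowest tested gene of each complex, the isoforms of complex IV, and the genes of a list of which at most 4 were called. Ndufs1, Ndufb10, Ndufs4, Uqcrc1, Cox7c, Atp5h, Atp5g1, Atp5g2, Mrpl36, Mrps23, Mrps33, the 7 genes lower in HFSC than in CD34a6, the 8 ribosomal genes lower in CD34+ cells and the single mitochondrially encoded, regulator and marker genes were named after their values were seen. Promoters are RefSeq's, GRCm38.p6.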

Additional observations from a re-analysis of the deposited data

How the results depend on the processing

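Directions of the counts and medians were most affected by scale. With FPKM rescaled to 1 sum per population (TPM), the genes called in CD34a6 against bulk split into 21 higher and 80 lower, and the medians of the log2 difference were -0.15 for the set, -0.43 for complex I, 0.41 for complex II, -0.75 for complex III, -0.64 for complex IV, -0.16 for complex V and 0.085 for the mitochondrial ribosome, with Sdhd at 0.35. In HFSC against bulk the split was 13 higher and 61 lower, and the medians were 0.037 for the set, -0.46 for complex I, 0.47 for complex II, -0.25 for complex III, -0.18 for complex IV, 0.088 for complex V and 0.24 for the ribosome, with Cox8a at 0.19, Mrpl33 at 0.059 and Uqcrfs1 at 0.015. In dorsomorphin against cyclopamine, whose medians lie near 0, they were 0.023 for the set, 0.085 for complex I, 0.072 for complex II, 0.11 for complex IV, 0.032 for complex V and 0.0069 for the ribosome. Summed FPKM there was 495393 with dorsomorphin and 536270 with cyclopamine. The largest locus was Gm37376 with dorsomorphin (11514 FPKM) and mt-Rnr1 with cyclopamine (31632 FPKM). The part of mt-Rnr1 in these signs and in the shares of summed FPKM was not tested. In that comparison the median of complex IV was also above 0 when centred on all loci (0.018) or by length (0.11), without tissue isoforms and non-structural genes (0.011) and over loci with no other gene on the strand (0.011), and that of complex I when centred by length (0.073). At an adjusted p under 0.01 the genes lower numbered 4 in HFSC against CD34a6, 15 in CD34+ against CD34neg and 0 under dorsomorphin. Without tissue isoforms and non-structural genes, 0 were higher in CD34a6 than in bulk and 4 were lower in HFSC than in CD34a6. Of these 4, only Ndufa11 was also lower at an adjusted p under 0.01. The sums change by construction in the rescaling, and the causes of the other changes were not tested. A value counted as kept where its direction held and its count or fold change stayed within a ratio of 1.5. Many values could not change. Pseudocounts leave the counts of calls as they are, and a stricter threshold or another adjustment of p leaves the medians as they are. Over the counts for the whole set and the medians, 463 values kept their direction and size, 15 moved and 17 turned. Over the counts per complex, the shares and the single genes, 1819 did so, 63 moved, 4 turned and 19 calls were lost, all at an adjusted p under 0.01. Among those that moved, complex I had 5 and the ribosome 11 called genes above 0 on the TPM scale in CD34a6 against bulk, where each had 0 higher before, and complex I had 4 lower in CD34+ against CD34neg at an adjusted p under 0.01, where it had 14.

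No paired analysis was possible because the deposited tables hold 1 value per population and none per replicate, although the labels give the groups the same replicate numbers. For the same reason leaving out each replicate was not run. Depth is unknown, so no interval or floor can be given.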

Other observations

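Values of Atp5l, Atp5g2 and the mitochondrially encoded mt-Co2 stand here side by side for the table of 3 populations and that of the culture fractions; the tables were normalised separately, with different tools named in the submitters' processing notes, so their levels are not compared. Atp5l had 0.407 FPKM in CD34a6, 0.766 in HFSC and 1.13 in bulk, and in the cultures 103 FPKM in CD34+ and 234 FPKM in CD34neg cells. For Atp5g2 the values were 1.55 FPKM in CD34a6, 1.45 in HFSC and 1.32 in bulk, and 53.3 FPKM in CD34+ and 126 FPKM in CD34neg cells. The gene mt-Co2 had 6.18 FPKM in CD34a6, 3.84 in HFSC and 13.4 in bulk, and 1184 FPKM in CD34+ and 531 FPKM in CD34neg cells.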
